A study of Homo sapiens with 4 samples.

Results

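Antisense RNA genes are transcribed from the DNA strand opposite to another gene, and the human gene catalogue names them after that gene with the ending -AS and a number. The deposited NB4 table held 60662 genes, of which 1172 had such a name. The 245 genes described here were chosen by their deposited counts, as those whose 4 count values summed to at least 100. Each was compared with the sense gene that the first part of its name gives, such as CEBPA for CEBPA-AS1. The count sum is what selected these genes, so their levels are given as a description and without a test, while the difference between the groups was not part of the choice.

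NB4 is a human acute promyelocytic leukaemia cell line that carries the PML-RARα fusion. Its cells had been transduced with a control vector (2 libraries) or with a vector expressing JMJD3, the protein encoded by KDM6B (2 libraries), and all 4 libraries were of bulk RNA from this 1 line. By the labels, vector library 1 was run on lane 20 while vector library 2 shared lane 17 with both JMJD3 libraries. Total deposited counts were 39078443 (vector 1), 40768225 (vector 2), 35176388 (JMJD3 1) and 34704909 (JMJD3 2). Nothing in the labels says whether libraries within a group stem from separate cultures or transductions, so the p-values measure only the spread between these samples. CPM stands for counts scaled to library size, and FPKM for the deposited value that also takes account of transcript length.

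Transcripts made from the strand opposite to a protein-coding gene often start close to that gene's own start, because many mammalian promoters fire in both directions. Most are long noncoding RNAs, and many are short-lived because the nuclear RNA exosome degrades them. JMJD3 removes methyl groups from a lysine of histone H3 that Polycomb proteins methylate, and it takes part in the maturation of myeloid cells.

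KDM6B itself (chromosome 17 of GRCh37, 7737535 to 7758114, plus strand) was at 15.8 and 13.7 CPM in the vector libraries and at 37.9 and 44.1 CPM in the JMJD3 libraries. Both JMJD3 libraries lay above both vector libraries. The rise was 1.48 on the log2 scale (standard error 0.13) with an adjusted p of 0.00114 in edgeR's quasi-likelihood test. Transcripts from the vector and from the native gene are counted together.

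The NB4 label was checked on 8 promyelocyte and NB4 marker genes, whose summed level was 16757 and 17568 CPM in the vector libraries and 10614 and 10582 CPM in the JMJD3 libraries. MPO, which encodes myeloperoxidase, was the most abundant, with 13876, 14110, 9379 and 9421 CPM in the same order. The elastase gene ELANE, a defining promyelocyte marker, was near 0, with 0.351, 0.183, 0.0270 and 0.0540 CPM. PRTN3 fell from 2096 and 2535 to 685 and 636 CPM and CTSG from 145 and 164 to 11.0 and 9.61 CPM. The markers of the labelled cell were thus present apart from ELANE, and lower on sum with JMJD3. CD33, of the same list, went the other way, from 65.1 and 68.7 to 83.5 and 79.7 CPM (0.29, adjusted p = 0.0380, edgeR).

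Markers of other cells were low or absent. All 5 erythroid genes were at 0 in every library, where a count of 0 allows up to 3 counts or between 0.0786 and 0.0810 CPM, a limit that covers counting error only. The 3 T cell genes summed to 3.75, 5.16, 11.0 and 11.1 CPM, nearly all from CD2, while the defining CD3E stayed at or below 0.0540 CPM. The 3 B cell genes summed to 10.4, 11.6, 17.6 and 15.9 CPM, mostly from CD79A, and the defining MS4A1 was at 0. The 4 epithelial genes summed to 6.61, 7.49, 3.43 and 2.81 CPM, with EPCAM the most abundant in the vector libraries and KRT5 and CDH1 at 0. The 3 fibroblast genes reached at most 0.183 CPM, all of it from COL1A1. The part of these shifts in the results on antisense genes was not tested, and in bulk RNA fewer cells of a type and less RNA per cell cannot be told apart.

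The 245 antisense genes took up a small share of the RNA. They held 0.194% and 0.192% of the counts of vector libraries 1 and 2 and 0.272% and 0.275% of those of JMJD3 libraries 1 and 2. Their summed level was 2046 CPM in each vector library and 2586 and 2578 CPM in the JMJD3 libraries. The median antisense gene was at 2.29 and 2.23 CPM against 3.05 and 2.94 CPM. Both JMJD3 libraries were higher than both vector libraries on each of these measures, and without the most abundant antisense gene the sums were still 1705 and 1653 CPM against 2123 and 2140 CPM. All annotated long noncoding RNA genes together held 1.07% of the counts in each vector library and 1.22% and 1.21% in the JMJD3 libraries. Over the same libraries the genes of the mitochondrial chromosome went from 7.91% and 7.65% to 5.73% and 5.86% of the counts, and the part of that shift in the shares of other genes was not tested.

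Levels among the antisense genes covered a wide range. The mean FPKM over the 4 libraries ran from 0.106 to 797 with a median of 3.15. It reached 10 in 46 genes and stayed below 1 in 44. The count sum ran from 102.5 to 61049 with a median of 396. Just inside the minimum lay SRRM2-AS1 with a sum of 102.5, ZEB2-AS1 with 104.0 and AFAP1-AS1 with 104.1, and just outside it PIK3CD-AS2 with 99.7, NR2F2-AS1 with 99.3 and EDRF1-AS1 with 98.7. A sum of at least 50 was reached within the vector group by 232 genes and within the JMJD3 group by 241. It was reached in both groups by 228, in the JMJD3 group alone by 13 and in the vector group alone by 4 (ST7-AS1, AFAP1-AS1, FAM13A-AS1 and LMF1-AS1, named after their values were seen).

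The annotation held 242 of the 245 genes and lacked NPPA-AS1, HNRNPU-AS1 and TNRC6C-AS1. It gave 235 as long noncoding RNA genes, 4 as transcribed pseudogenes and 3 (NCBP2-AS2, MMP24-AS1 and TOPORS-AS1) as protein-coding. For 34 of them the current symbol ends in -DT, for divergent transcript. A sense gene of the matching name was in the table for 242, since 3 names (TRG-AS1, RPARP-AS1 and JHDM1D-AS1) have a first part that names no gene there. These were 240 distinct sense genes, as PAXIP1 and PTOV1 each have 2 antisense genes among the 245. All 245 antisense genes and 223 of the 240 sense genes passed edgeR's filter on low counts, which gave 225 pairs with a test of each partner.

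Between the groups, 93 antisense genes (38.0%) were higher in JMJD3 cells at an adjusted p under 0.05 in edgeR's quasi-likelihood test, against 21.6% of the 15246 genes tested. Lower were 16 (6.53%), against 19.1% of all genes tested. With a change of at least 2-fold as well, 37 were higher (15.1%, against 7.55%) and 3 were lower (1.22%, against 2.82%). Of the 37, 31 had count sums from 100 to under 1000. At that level 17.1% of antisense genes were at least 2-fold higher, against 16.0% of all genes tested and 18.8% of protein-coding genes. At least 2-fold lower there were 1.66% of antisense genes, against 5.44% of all genes tested. With sums of at least 1000, 9.4% of antisense genes were at least 2-fold higher, against 2.66% of all genes tested. The median log2 fold change was 0.40 in the antisense genes and 0.04 in all genes tested, and 183 of the 245 changes were above 0. Both JMJD3 libraries lay above both vector libraries in 144 antisense genes (58.8%), against 39.6% of all genes tested, and below both in 40 (16.3%), against 34.8%. With other tests fewer were called, of antisense genes as of all genes. With the DESeq2 Wald test the number of antisense genes higher was 60 (24.5%, against 9.08% in the same fit) and of antisense genes lower 10 (4.08%, against 10.4%), and limma on log2(FPKM + 0.1) gave 60 higher (24.5%, against 13.3%). With limma on log2(FPKM + 1), 10 were at least 2-fold higher (4.08%, against 1.92%) and 0 lower, and with no filter on low counts 9 were lower (3.67%, against 6.55%). Single changes ran from -1.99 to 2.18 on the log2 scale. The vector and JMJD3 libraries overlapped in 61 genes.

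Of the 228 antisense genes with a sum of at least 50 in each group, 84 were higher and 15 lower, beside 21.6% and 19.1% of all genes tested. Single libraries moved the number called. Without JMJD3 library 1 the number higher was 54 (22.0%, against 12.8% of all genes) and the number lower 8 (3.27%, against 8.64%). Without JMJD3 library 2 they were 59 (24.1%, against 11.96%) and 7 (2.86%, against 7.03%). Without vector library 1, and likewise without vector library 2, the number of antisense genes lower, at least 2-fold, was 5 (2.04%, against 3.78% and 2.77% of all genes). In each of these fits the library left alone in its group was taken to vary like those of the other group. The share of antisense genes higher stayed above that of all genes, and the share lower below it, with each of the 4 libraries left out. Within lane 17 alone, which holds only 1 vector library and is the fit without vector library 1, 90 were higher (36.7%, against 26.8%) and 19 lower (7.76%, against 26.6%). Elsewhere in the comparison, lane 20 and vector library 1 cannot be told apart.

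The level of a gene bears on how often it was called, so the antisense genes were set beside other genes of like count sum, in classes chosen after the data were seen. With sums from 100 to under 1000, 62 of 181 antisense genes were higher (34.3%) and 11 lower (6.08%). At that level 29.1% of all genes tested were higher and 10.9% lower, 33.8% and 10.1% of protein-coding genes, and 23.1% and 13.6% of the other long noncoding RNA genes. The share of higher genes among these low antisense genes was therefore near that of protein-coding genes of the same level. With sums of at least 1000, 31 of 64 antisense genes were higher (48.4%) and 5 lower (7.81%), against 19.9% and 24.6% of all genes tested there. The gap was widest in the highest class, where 13 of 28 antisense genes were higher (46.4%), against 15.0% of all genes tested, 15.0% of protein-coding genes and 11.7% of other long noncoding RNA genes. At that level 3 of the 28 were lower (10.7%), against 29.0%, 29.0% and 36.4%. The median sums in this class were 4792 in the antisense genes and 9223 in all genes tested.

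**Figure D1:**
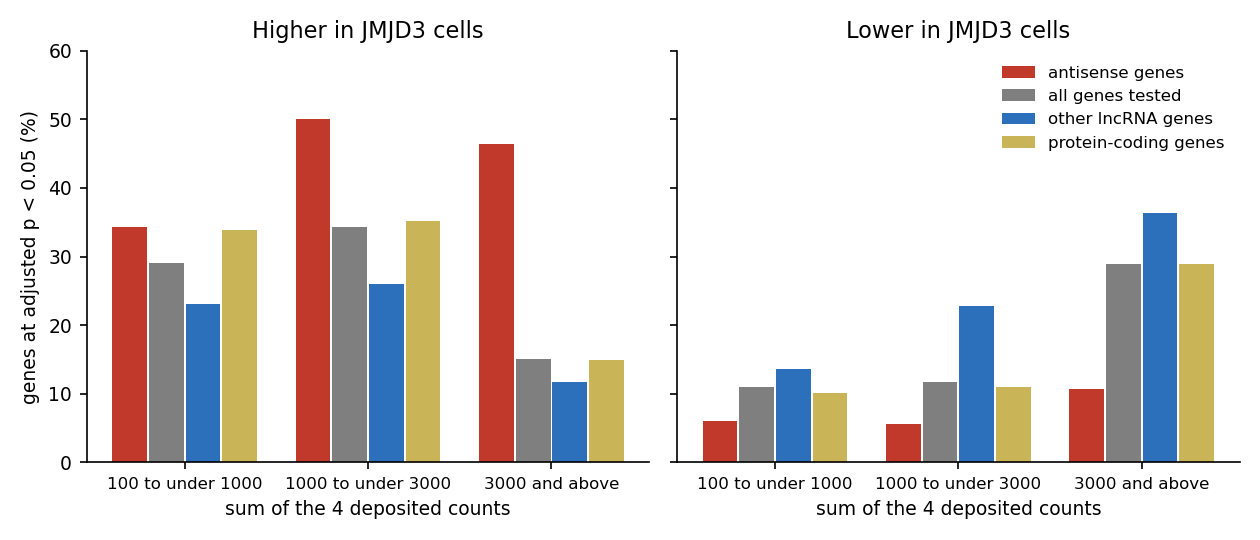
Percentage of genes called higher (left) or lower (right) in JMJD3 cells at an adjusted p under 0.05, for antisense genes, all genes tested, other lncRNA genes and protein-coding genes in 3 classes of the summed deposited counts. In the lowest class 34.3% of antisense genes and 33.8% of protein-coding genes were higher, and in the highest class 46.4% and 15.0%.

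Names of related kinds were few in the table at the same count minimum. There were 5 genes ending in -AS with no number, 4 ending in -IT and a number (transcripts inside an intron), 1 ending in -OT and a number, and 0 ending in -DT. Of these 10 together, 3 were higher and 3 lower. Below the minimum lay 927 antisense names, of which 80 passed the filter, 17 of them higher and 5 lower. A gene with so few counts passes the filter more readily where 1 group is high, so nothing is read from the latter counts. Among the 34 members now named -DT, 15 were higher (44.1%, against 38.0% of all members and 21.6% of all genes tested) and 0 lower by edgeR.

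TMCC1-AS1 had the largest rise. Its level was 3.75 and 3.62 CPM in vector libraries 1 and 2 and 16.5 and 16.9 CPM in JMJD3 libraries 1 and 2. The 2 groups lay far apart, and the libraries within each group close together. The log2 fold change was 2.18 (standard error 0.12, adjusted p = 0.000375, edgeR's quasi-likelihood test). The gene lies on the plus strand of chromosome 3 of GRCh37 from 129612654 to 129637421, shares 0 exon bases with exons of the other strand, and starts 100 bases from TMCC1, which encodes a membrane protein of the endoplasmic reticulum. TMCC1 was at 6.21, 5.37, 9.29 and 9.37 CPM, a log2 fold change of 0.69 (adjusted p = 0.00838, edgeR), and was no longer called with limma on log2(FPKM + 1) or log2(FPKM + 0.1), at adjusted p of 0.128 and 0.123. The FPKM of TMCC1-AS1 was 0.345 and 0.390 of that of TMCC1 in the vector libraries and 1.64 and 1.55 of it in the JMJD3 libraries. The antisense gene thus went from below its sense gene to above it.

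LENG8-AS1 rose next most, from 0.297 and 0.445 CPM to 1.57 CPM in both JMJD3 libraries. Those vector values rest on deposited counts of only 11.4 and 16.7, against 57.6 and 58.0. LENG8-AS1 is thus among the 13 genes that reached a sum of at least 50 in the JMJD3 group alone. The log2 fold change was 2.06 (standard error 0.29, adjusted p = 0.00335, edgeR). LENG8, a gene of the leukocyte receptor cluster, stayed at 226, 220, 206 and 218 CPM, a log2 fold change of -0.07 (adjusted p = 0.477, edgeR). Its groups barely differed while the antisense gene rose. The FPKM ratio of LENG8-AS1 to LENG8 was 0.0108 and 0.0150 in the vector libraries and 0.0638 and 0.0576 in the JMJD3 libraries.

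The promoters of 6 antisense genes that stand for the patterns described here are given from RefSeq on GRCh38.p14, 5′ to 3′ on the strand of the antisense gene, from 250 bases before its start to 50 after it. They are the largest rises with and without a change of the sense gene (TMCC1-AS1, chr3:129893621-129893920, plus strand, and LENG8-AS1, chr19:54448989-54449288, minus strand) and a pair that rose together (ZEB1-AS1, chr10:31319046-31319345, minus strand). The others are 2 antisense genes that rose as the sense gene fell (CEBPA-AS1, chr19:33302571-33302870, plus strand, and OIP5-AS1, chr15:41283740-41284039, plus strand) and 1 that fell as it rose (SEMA3F-AS1, chr3:50156036-50156335, minus strand). The rise of OIP5-AS1 was seen in counts and not in FPKM, as described below. Capitals mark matches, on either strand, to the GC box GGGCGG and, in OIP5-AS1 alone, to 1 match of the C/EBP motif TTNNGNAA, which comes before the GC box.
TMCC1-AS1: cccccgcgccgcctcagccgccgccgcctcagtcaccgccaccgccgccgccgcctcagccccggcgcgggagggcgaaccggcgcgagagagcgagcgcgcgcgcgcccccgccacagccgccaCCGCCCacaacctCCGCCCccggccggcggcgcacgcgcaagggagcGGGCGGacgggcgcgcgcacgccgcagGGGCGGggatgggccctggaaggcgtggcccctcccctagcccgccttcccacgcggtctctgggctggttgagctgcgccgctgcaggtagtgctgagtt
LENG8-AS1: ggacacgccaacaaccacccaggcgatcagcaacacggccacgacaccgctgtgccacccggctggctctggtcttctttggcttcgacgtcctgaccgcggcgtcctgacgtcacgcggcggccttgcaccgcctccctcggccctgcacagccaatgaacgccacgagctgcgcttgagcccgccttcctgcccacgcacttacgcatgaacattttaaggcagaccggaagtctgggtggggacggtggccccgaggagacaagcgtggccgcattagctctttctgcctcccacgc
ZEB1-AS1: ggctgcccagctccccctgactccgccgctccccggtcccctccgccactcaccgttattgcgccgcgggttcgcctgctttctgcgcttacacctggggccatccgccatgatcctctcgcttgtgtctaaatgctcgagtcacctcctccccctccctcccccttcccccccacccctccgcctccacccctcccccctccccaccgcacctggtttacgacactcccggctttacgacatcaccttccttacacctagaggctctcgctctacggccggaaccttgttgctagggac
CEBPA-AS1: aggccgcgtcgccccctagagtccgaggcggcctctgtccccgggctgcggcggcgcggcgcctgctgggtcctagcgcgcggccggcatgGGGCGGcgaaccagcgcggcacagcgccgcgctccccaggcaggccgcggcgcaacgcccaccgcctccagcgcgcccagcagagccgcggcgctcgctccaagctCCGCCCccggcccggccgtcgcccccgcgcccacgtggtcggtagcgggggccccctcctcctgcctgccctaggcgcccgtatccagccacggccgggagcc
OIP5-AS1: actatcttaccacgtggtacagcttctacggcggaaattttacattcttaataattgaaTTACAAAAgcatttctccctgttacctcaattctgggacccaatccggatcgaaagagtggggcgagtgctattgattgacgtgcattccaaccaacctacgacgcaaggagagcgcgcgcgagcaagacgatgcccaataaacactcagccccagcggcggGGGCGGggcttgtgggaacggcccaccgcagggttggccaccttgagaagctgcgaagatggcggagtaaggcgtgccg
SEMA3F-AS1: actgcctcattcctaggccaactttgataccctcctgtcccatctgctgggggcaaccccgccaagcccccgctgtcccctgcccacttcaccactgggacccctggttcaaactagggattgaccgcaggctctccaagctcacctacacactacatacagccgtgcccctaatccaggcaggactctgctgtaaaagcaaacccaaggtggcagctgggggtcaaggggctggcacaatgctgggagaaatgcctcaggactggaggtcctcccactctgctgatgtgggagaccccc
The TMCC1-AS1 window held 4 GC boxes and 49 CpG, and the start of TMCC1 lay 160 bases away on the other strand, running the other way. LENG8-AS1 and ZEB1-AS1 had sense starts 161 and 121 bases away in the same divergent layout and held 29 and 21 CpG with 0 matches to any motif searched. The annotation on GRCh37, used for the arrangements below, differs for ZEB1-AS1. There it starts inside ZEB1, 1952 bases from the sense start. CEBPA-AS1 held 2 GC boxes and 47 CpG, 287 bases from the start of CEBPA. SEMA3F-AS1 held 4 CpG and 0 matches, with a sense start 761 bases away and the 2 genes running over each other. OIP5-AS1 held 23 CpG, with a sense start 48601 bases away. The window of SEMA3F-AS1 thus had the fewest CpG of the 6. Those of ZEB1-AS1 and OIP5-AS1 were close in number of CpG despite their layouts, but only the latter held motif matches.

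RefSeq had a promoter for 187 of the 245 antisense genes, and these were read beside all 27305 promoters of the table, 1 a gene. The GC box GGGCGG was in 63.1% of the antisense promoters and in 44.6% of all promoters. The C/EBP motif TTNNGNAA was in 21.9% and 37.2%, the AP-1 motif TGANTCA in 3.74% and 7.76%, and the TATA box TATAAA in 5.35% and 11.95%. All were searched on both strands, and a match is a description, not a site in use. The median number of CpG was 26 in the antisense promoters and 14 in all, and the median GC content 65% and 58.3%. The motif shares were not adjusted for GC content. The 76 antisense genes called higher had a median of 29 CpG, the 99 not called 23 and the 12 called lower 7. The promoters of 200 sense genes were much like those of their partners, with a GC box in 71.0%, the C/EBP motif in 21.0% and a median of 26.5 CpG. A sense start on the other strand was in the table for 163 antisense genes. It lay within 300 bases in 59, and in 49 of these the 2 starts pointed away from each other. Of those 49 divergent antisense genes 26 were higher and 2 lower (NCBP2-AS2 and RASSF1-AS1), beside 38.0% and 6.53% of all 245 and 21.6% and 19.1% of all genes tested. In the annotation on GRCh37 RASSF1-AS1 lies inside RASSF1 instead.

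VAC14-AS1, inside the gene for a scaffold protein of the lipid kinase PIKfyve, was at 1.67, 1.68, 6.75 and 6.08 CPM in vector libraries 1 and 2 and JMJD3 libraries 1 and 2. Its groups stood well apart, a log2 fold change of 1.93 (adjusted p = 0.00101, edgeR, standard error 0.16). PSMG3-AS1, whose partner encodes a chaperone of proteasome assembly, was at 2.24, 1.94, 7.26 and 8.37 CPM (log2 fold change 1.90). DNAJC3-AS1, opposite a co-chaperone of the endoplasmic reticulum, was at 2.00, 1.65, 6.13 and 7.43 CPM (1.89). Neither PSMG3 nor DNAJC3 was called, with adjusted p of 0.0815 and 0.0850 by edgeR, although both antisense genes rose more than 3-fold. CCDC18-AS1 was at 3.70, 2.91, 11.9 and 12.5 CPM (1.89) and moved with CCDC18, which rose by 0.95 on the log2 scale. ZEB1-AS1 was at 1.67, 1.52, 4.62 and 4.94 CPM, a log2 fold change of 1.58 (adjusted p = 0.00171, edgeR). ZEB1, which encodes a repressor of transcription with zinc fingers, was at 17.1, 11.1, 33.8 and 35.3 CPM (1.30, adjusted p = 0.00408, edgeR), so that both partners were higher in both JMJD3 libraries.

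The remaining large rises were of genes with few counts. LPP-AS2 had a log2 fold change of 1.88, TOB1-AS1 of 1.68, MAP3K14-AS1 of 1.64, SEPSECS-AS1 of 1.61 and MZF1-AS1 of 1.49, each with both JMJD3 libraries above both vector libraries. Among these, SEPSECS-AS1 went from 0.836 and 1.13 to 2.92 and 3.11 CPM, but its FPKM went only from 4.07 and 5.76 to 6.28 and 8.23. With limma on log2(FPKM + 1) and on log2(FPKM + 0.1) it was no longer called, at log2 fold changes of 0.49 and 0.56. SEPSECS, needed to make the tRNA for selenocysteine, rose by 0.70 on the log2 scale.

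**Figure D2:**
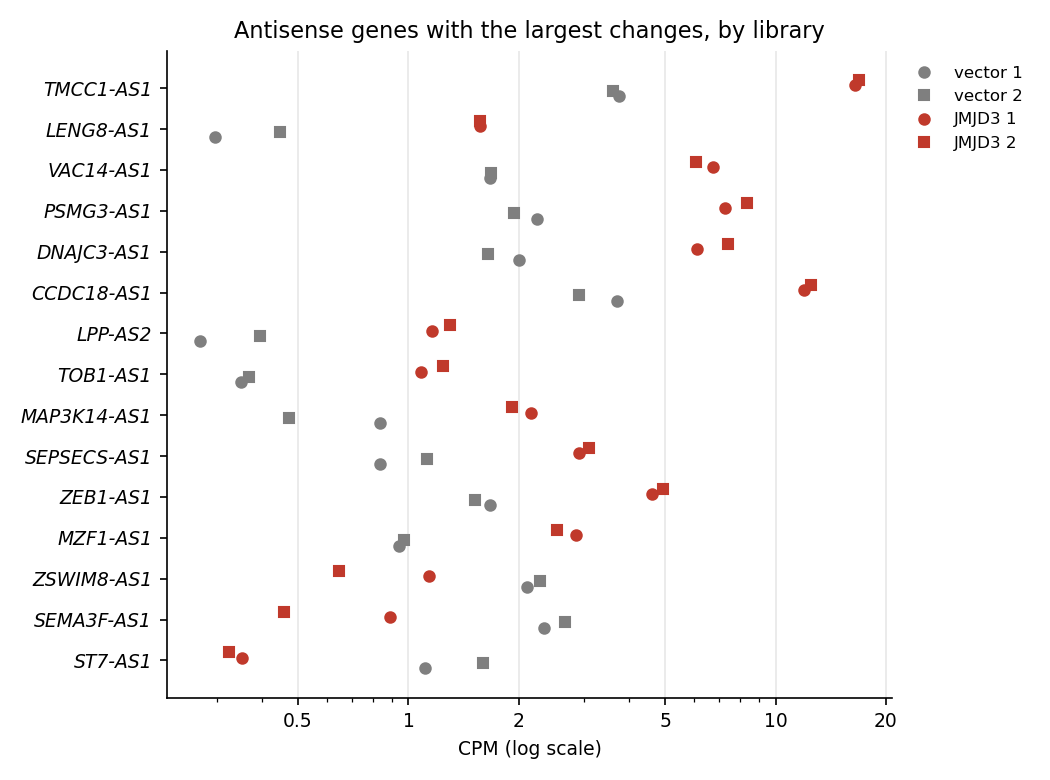
Level in CPM on a log axis of the 12 antisense genes with the largest rises and the 3 at least 2-fold lower, 1 point a library. TMCC1-AS1 stood at 3.75 and 3.62 CPM in vector and 16.5 and 16.9 CPM in JMJD3 libraries, and ST7-AS1 at 1.11 and 1.60 against 0.351 and 0.324 CPM.

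Only 3 antisense genes were called and at least 2-fold lower. Of these, ST7-AS1 is among the genes that reached a sum of at least 50 in the vector group alone. ST7-AS1 was at 1.11 and 1.60 CPM in the vector libraries and at 0.351 and 0.324 CPM in the JMJD3 libraries, a log2 fold change of -1.99 (adjusted p = 0.00541, edgeR, standard error 0.33). SEMA3F-AS1 was at 2.35, 2.67, 0.891 and 0.459 CPM, a log2 fold change of -1.89 (adjusted p = 0.00516, edgeR, standard error 0.31). ZSWIM8-AS1 was at 2.10, 2.28, 1.13 and 0.648 CPM, a log2 fold change of -1.30 (adjusted p = 0.0132, edgeR, standard error 0.28). In each the groups did not overlap, and the 2 JMJD3 libraries of SEMA3F-AS1 and ZSWIM8-AS1 differed nearly 2-fold from each other. Without JMJD3 library 2, ZSWIM8-AS1 was no longer called (log2 fold change -0.95, adjusted p = 0.0538, edgeR). Without a filter on low counts it was not called either (adjusted p = 0.0524).

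These falls share a feature that limits how they can be read. The libraries carry no stated strand-marking step, so reads of an antisense gene and of an opposite gene cannot be told apart where their exons overlap. Of the exon bases of ST7-AS1 40.3% lay on exons of the other strand, of SEMA3F-AS1 30.9% and of ZSWIM8-AS1 64.6%. ST7 was at 14.5 CPM in both vector libraries and at 10.9 and 9.45 CPM with JMJD3 (log2 fold change -0.51), and ZSWIM8, whose protein directs the decay of microRNAs by ubiquitin, at 47.1, 45.0, 35.2 and 37.9 CPM (-0.33). Both sense genes fell with their antisense genes and lost their call when JMJD3 library 1 or 2 was left out. SEMA3F moved the other way and is described with the pairs.

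Over all 242 annotated antisense genes, the median share of exon bases on opposite-strand exons was 8.16%, and it was at least 50% in 22. With no shared base, 22 of 48 antisense genes were higher (45.8%) and 1 lower (NCBP2-AS2), with a median log2 fold change of 0.51. With a share up to 10%, 38 of 83 were higher and 2 lower (PCED1B-AS1 and CHRM3-AS2), median 0.42. With 10 to 30%, 24 of 58 were higher and 3 lower (STEAP3-AS1, SLC25A25-AS1 and UCKL1-AS1), median 0.41. Above 30%, 8 of 53 were higher (15.1%) and 9 lower (16.98%), median 0.03. The rise was thus frequent where no exon base was shared, and less frequent above 30%. The latter genes had a median count sum of 242, and of all genes with sums from 200 to under 400, 31.2% were higher and 11.2% lower. These classes were chosen after the data were seen, and the difference between them was not tested. Among genes with a count sum under 1000, 56 of 132 with a share up to 30% were higher and 3 lower, against 6 and 7 of 47 above 30%.

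**Figure D3:**
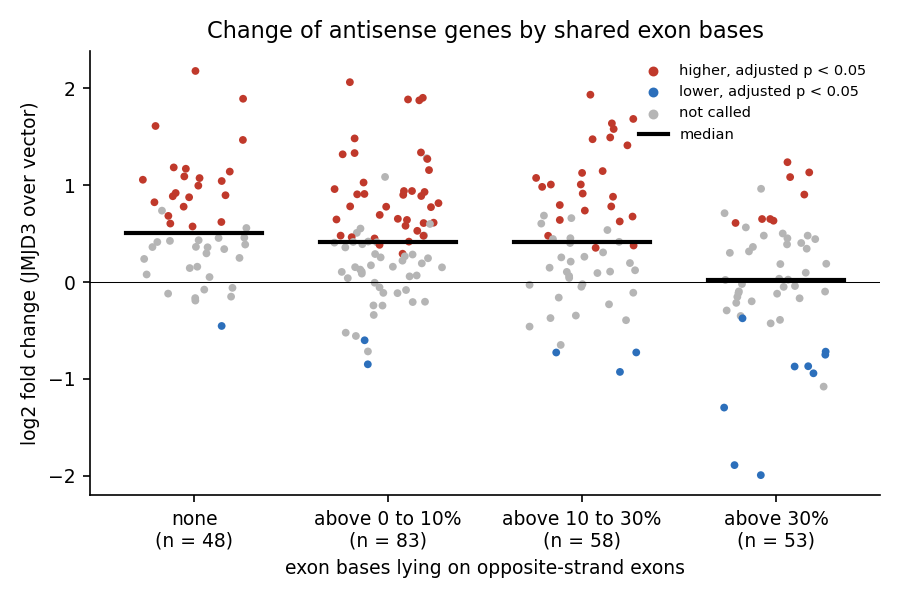
Log2 fold change (JMJD3 over vector) of each antisense gene by the share of its exon bases on exons of the opposite strand, 1 point a gene with the median as a bar. Medians were 0.51, 0.42 and 0.41 in the first 3 classes and 0.03 above 30%, where 9 of the 16 genes called lower lay.

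The arrangement with the sense gene could be read for 239 antisense genes in the annotation, and their calls stand beside 21.6% higher and 19.1% lower of all genes tested. Head to head, with starts on opposite strands within 1000 bases, lay 94, of which 42 were higher (44.7%) and 2 lower (2.13%, PTOV1-AS1 and NCBP2-AS2), with a median log2 fold change of 0.45. Of these 94, the 45 with no shared bases gave 19 higher and the 49 with overlapping starts 23. Overlapping 1 end of the sense gene lay 91, with 33 higher (36.3%), 5 lower (5.49%) and a median of 0.38. Spanning the whole sense gene lay 17, with 7 higher (41.2%) and 0 lower by edgeR (median 0.41). Inside the sense gene lay 35, with 6 higher (17.1%), 8 lower (22.9%) and a median of 0.32. Another 2 (FOXD2-AS1 and SVIL-AS1) lay apart from the named gene. Median count sums were 544 head to head, 362 overlapping an end, 720 spanning the sense gene and 230 inside it. Of all genes with sums from 200 to under 400, 31.2% were higher and 11.2% lower. The differences between arrangements were not tested or adjusted for level.

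The most abundant antisense gene by FPKM was LRRC75A-AS1, now named SNHG29, a host gene of small nucleolar RNAs. Its FPKM was 658 and 780 in the vector libraries and 894 and 855 in the JMJD3 libraries, higher in both of the latter. In CPM the log2 fold change was 0.29 (adjusted p = 0.0409, edgeR). This call ended under 9 alternatives, with adjusted p up to 0.284. Without vector library 1 the change was 0.15 (adjusted p = 0.1002), without JMJD3 library 1 it was 0.26 (adjusted p = 0.284) and without JMJD3 library 2 it was 0.33 (adjusted p = 0.155), all from edgeR.

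OIP5-AS1, also known as cyrano, a conserved RNA that sets the decay of a microRNA, was second in counts. Its level was 98.1 and 88.2 CPM in vector libraries 1 and 2 and 174 and 189 CPM in JMJD3 libraries 1 and 2, with the groups far apart. The log2 fold change was 0.96 (standard error 0.09, adjusted p = 0.00142, edgeR). The deposited FPKM, however, was 39.8, 38.4, 39.7 and 39.3, nearly the same in all 4 libraries. With limma on log2(FPKM + 1) the change was 0.01 (adjusted p = 0.918). Dividing each count, as a share of the deposited total of its library and without TMM scaling, by FPKM gives a transcript length in kilobases that the deposited values imply. This went from 2.34 and 2.15 to 4.61 and 5.13, and the shift is smaller when the CPM given above are used. The rise in OIP5-AS1 was therefore seen in counts and not in FPKM, and which transcripts changed was not tested. Such a shift of at least 1.5-fold in implied length was found in 7 of the 245 antisense genes (2.86%) and in 3.80% of all genes tested.

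Of the other antisense genes with the highest FPKM, NUTM2A-AS1 stood at 106, 110, 88.8 and 82.4 FPKM but at 51.5, 48.7, 52.9 and 51.4 CPM, so that its direction differed between the scales. It was not called in CPM (log2 fold change 0.06, adjusted p = 0.633, edgeR) and was lower with limma on log2(FPKM + 1) at -0.33 (adjusted p = 0.0372). PCED1B-AS1 fell from 23.5 and 25.2 to 16.1 and 16.0 CPM, a log2 fold change of -0.60 (adjusted p = 0.00582, edgeR). NCBP2-AS2, which is annotated as protein-coding, fell from 34.7 and 41.4 to 28.8 and 26.8 CPM (-0.45, adjusted p = 0.0256, edgeR). In both genes the groups did not overlap, yet leaving out JMJD3 library 1 or 2 raised the adjusted p past 0.05, to 0.0510 and 0.0591 for PCED1B-AS1 and to 0.116 and 0.240 for NCBP2-AS2. EPB41L4A-AS1 fell from 34.5 and 37.1 to 19.1 and 18.2 CPM (-0.94, adjusted p = 0.00191, edgeR), with 51.2% of its exon bases on opposite-strand exons. ELFN1-AS1 rose by 0.62 and THAP9-AS1 by 0.53 on the log2 scale. ELFN1-AS1 was not called without JMJD3 library 1 (0.56, adjusted p = 0.0596), and THAP9-AS1 was not called without JMJD3 library 1 or 2 (adjusted p of 0.0780 and 0.0740, edgeR). MAPKAPK5-AS1 and MMP24-AS1, at 0.04 and 0.21, were not called.

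In the fit of all 4 libraries 21.5% of the sense genes and 38.0% of the antisense genes were called higher, a difference that was not tested. The antisense genes had a far lower median count sum, at 396 against 5178. Of 223 sense genes tested, 48 were higher (21.5%, against 21.6% of all genes) and 56 lower (25.1%, against 19.1%), with a median log2 fold change of 0.08. At least 2-fold, 9 were higher (4.04%, against 7.55%) and 3 lower (1.35%, against 2.82%; PCED1B, EPB41L4A and STARD4). The sense genes had a median count sum of 5178, and of all genes with sums of at least 1000, 19.9% were higher and 24.6% lower, so their shares were near those of genes of like level. Without vector library 1 the number of sense genes higher was 74 (32.9%, against 26.8% of all genes in that fit and 36.7% of antisense genes) and the number at least 2-fold higher 15 (6.67%, against 8.35%), so the difference from the antisense genes was small there. Without JMJD3 library 2 the numbers of sense genes higher and sense genes lower were 31 (13.8%, against 11.96%) and 17 (7.59%, against 7.03%), and without JMJD3 library 1 the number lower was 20 (8.89%, against 8.64%). In FPKM the antisense gene lay above the sense gene in 46 of 225 pairs (20.4%), and the median ratio of antisense to sense was 0.152.

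Pair by pair, both partners were called in 46 of 225 pairs, in the same direction in 28 (19 both higher and 9 both lower) and in opposite directions in 18. In 17 of those 18 the antisense gene was higher and the sense gene lower. Among all 245 antisense genes 93 were higher and 16 lower, so most opposite pairs would take this form from the separate calls alone. The numbers of pairs were not tested against those calls. Only the antisense gene was called in 54 pairs, 50 of them higher. Only the sense gene was called in 59, and neither in 66. Without vector library 1 there were 44 pairs in the same direction, without JMJD3 library 1 there were 9 and without JMJD3 library 2 there were 11, and the opposite pairs numbered 4 and 3 without JMJD3 libraries 1 and 2. The antisense change was above the sense change in 155 of the 225 pairs. The FPKM ratio of antisense to sense was higher in both JMJD3 libraries than in both vector libraries in 113 pairs and lower in 47, and it overlapped in 65.

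Across the 225 pairs the log2 fold changes of the partners had a Pearson correlation of 0.13 and a Spearman correlation of 0.19, given as a description, since genes share the same 4 libraries and are not independent. The values by arrangement are given without a test of their difference. For 93 head-to-head pairs they were 0.02 and 0.06, and for 33 antisense genes inside the sense gene 0.50 and 0.60. For 83 overlapping an end they were 0.08 and 0.17 and for 13 spanning the sense gene 0.22 and 0.30. Of the 14 head-to-head pairs with both partners called, 7 moved in the same direction and 7 in opposite ones. Of the 10 inside pairs with both called, 9 moved in the same direction. By the share of exon bases on opposite-strand exons the Pearson correlation was 0.24 with none, -0.03 up to 10%, 0.29 from 10 to 30% and 0.11 above 30%, and the Spearman correlation 0.22, -0.02, 0.33 and 0.35. Reads counted for both partners and a common change cannot be told apart.

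**Figure D4:**
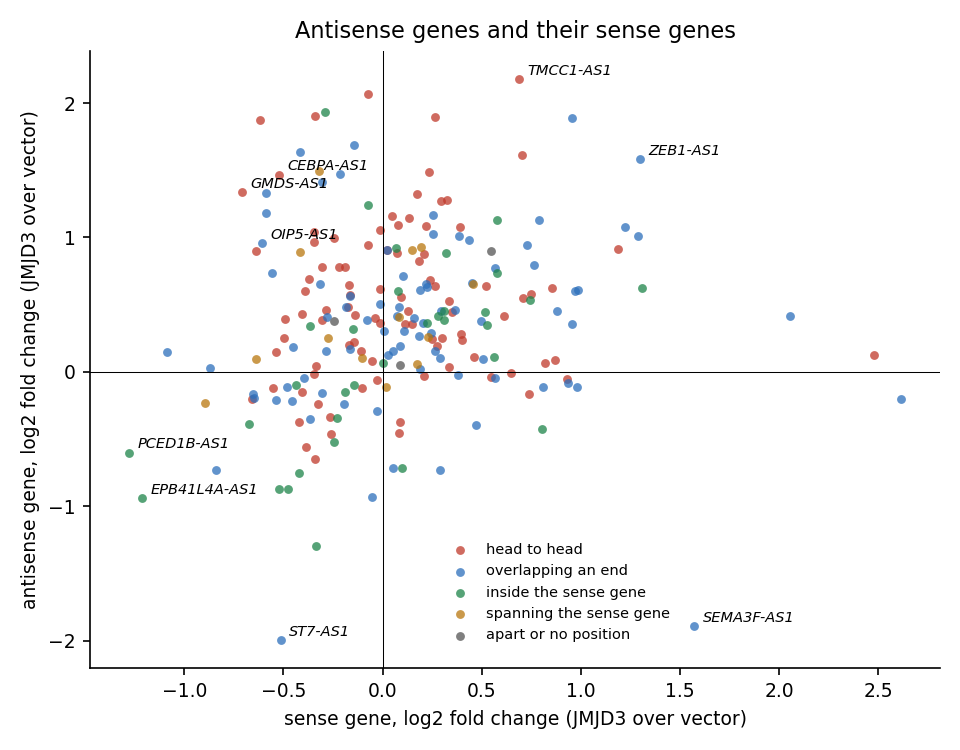
Log2 fold change (JMJD3 over vector) of 225 antisense genes against that of their sense genes, 1 point a pair, coloured by arrangement. The points spread upward with little relation to the sense gene (Pearson correlation 0.13), and SEMA3F-AS1 lies alone at the lower right, at -1.89 against 1.57.

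CEBPA-AS1 moved against the gene for C/EBPα, a transcription factor needed to make granulocytes. CEBPA-AS1 was at 2.16 and 2.99 CPM in vector libraries 1 and 2 and at 7.16 and 7.10 CPM in JMJD3 libraries 1 and 2, while CEBPA was at 219, 256, 175 and 155 CPM. The antisense gene was higher and the sense gene lower in both JMJD3 libraries. The log2 fold changes were 1.47 for CEBPA-AS1 (standard error 0.18, adjusted p = 0.00241, edgeR) and -0.52 for CEBPA (standard error 0.11, adjusted p = 0.0106, edgeR). Without JMJD3 library 2 CEBPA was no longer called (-0.43, adjusted p = 0.0801, edgeR). The 2 genes lie head to head and share 0 exon bases in GENCODE release 44, and the annotation behind the deposited counts may differ. In FPKM the antisense gene remained far below, with a ratio to CEBPA of 0.0121 and 0.0143 in the vector libraries and 0.0499 and 0.0559 in the JMJD3 libraries.

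SEMA3F-AS1 gave the only called pair with a lower antisense and a higher sense gene. SEMA3F, which encodes a secreted guidance protein, was at 8.15, 8.65, 24.4 and 25.5 CPM, a log2 fold change of 1.57 (adjusted p = 0.000606, edgeR, standard error 0.11). Their FPKM ratio went from 0.388 and 0.378 to 0.0548 and 0.0232, without overlap of the groups. Since 30.9% of the exon bases of SEMA3F-AS1 lie on opposite-strand exons, some of its counts may be shared with the other gene, and this was not tested.

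Other pairs with a higher antisense and a lower sense gene differed in how firmly the sense gene was called. GMDS-AS1 was at 1.05, 0.603, 2.30 and 1.89 CPM (log2 fold change 1.34, adjusted p = 0.0138, edgeR). GMDS, which makes a precursor of GDP-fucose, was at 47.1, 50.5, 32.7 and 27.0 CPM (-0.71, adjusted p = 0.00637, edgeR), and was not called without JMJD3 library 2 (-0.57, adjusted p = 0.0696). VAC14 was at 92.6, 102, 77.4 and 81.7 CPM (-0.29, adjusted p = 0.0421, edgeR), against the rise of VAC14-AS1 given above. MAP3K14, which encodes the kinase NIK of the noncanonical NF-κB pathway, was at 6.12, 6.18, 4.78 and 4.46 CPM (-0.41, adjusted p = 0.0445, edgeR), while MAP3K14-AS1 was at 0.836, 0.472, 2.16 and 1.92 CPM. In all 3 pairs the groups of both partners stood apart. VAC14 and MAP3K14 lost their calls when JMJD3 library 1 or 2 was left out, with log2 fold changes from -0.25 to -0.46. OIP5, a factor that helps to load centromeric histones, fell from 24.9 and 25.8 to 16.8 and 16.4 CPM (-0.61, adjusted p = 0.00520, edgeR) beside the higher counts of OIP5-AS1, and was not called without JMJD3 library 2 (-0.59, adjusted p = 0.0642).

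**Figure D5:**
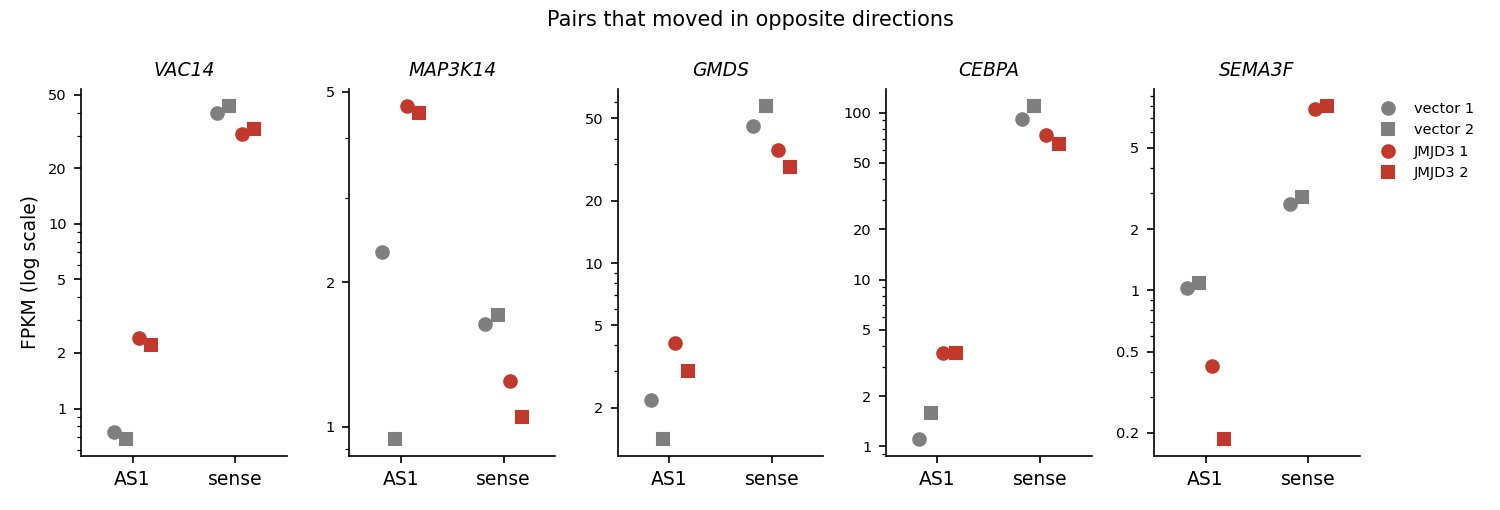
FPKM on log axes of the 5 pairs with the largest difference in opposite directions, antisense at the left and sense at the right of each panel, 1 point a library. In the CEBPA panel the antisense gene rises and the sense gene falls, and in the SEMA3F panel the sense gene rises from 2.64 and 2.88 to 7.78 and 8.06 FPKM.

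The sense genes were also grouped by function, in groups too small to compare closely with the shares over all 245 antisense genes (38.0% higher, 6.53% lower) and all 223 sense genes (21.5% and 25.1%). Where the sense gene acts in the proteasome, translation or RNA processing, 7 of 12 antisense genes were higher and 0 lower, while 0 of the 12 sense genes were higher and 6 lower by edgeR. These sense genes had a median count sum of 22338, and 29.0% of all genes in the highest class of sums were lower. PSMD5-AS1 rose from 7.93 and 6.55 to 16.1 and 16.5 CPM (1.17, adjusted p = 0.00200, edgeR) and PSMB8-AS1 from 6.29 and 7.23 to 14.9 and 13.8 CPM (1.08, adjusted p = 0.00216, edgeR). For PSMB8-AS1 52.6% of the exon bases lie on opposite-strand exons, and neither PSMD5 (0.25) nor PSMB8 (0.22) was called. With cell cycle and DNA repair sense genes, 6 of 10 antisense genes were higher and 1 lower (PRC1-AS1), and of 9 sense genes 1 was higher (CEP83) and 4 lower. The 6 include OIP5-AS1, whose rise was seen in counts and not in FPKM. KIF9-AS1 rose there from 1.13 and 1.99 to 4.10 and 4.24 CPM (1.41), and PAXIP1-AS1 from 17.3 and 17.9 to 26.5 and 26.1 CPM (0.57, not called without JMJD3 library 1 at an adjusted p of 0.0544, edgeR). By sign alone, called or not, 10 of 12 antisense changes in the first of these groups and 8 of 10 in the second were above 0. Of the sense genes 3 of 12 and 2 of 9 had a change above 0. The difference between the partners was not tested.

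With zinc finger sense genes, 4 of 11 antisense genes were higher and 0 lower, and of 10 sense genes tested 3 were higher and 0 lower by edgeR. ZNF213-AS1 and ZNF436-AS1 rose by 0.91 on the log2 scale and ZNF674-AS1 by 0.58, and ZNF436 itself rose by 1.19. ZNF436-AS1 was not called without JMJD3 library 1 (0.74, adjusted p = 0.0776), nor ZNF674-AS1 without JMJD3 library 1 (0.62, adjusted p = 0.0594) or 2 (0.55, adjusted p = 0.111), all by edgeR. With chromatin and transcription sense genes, 3 of 10 antisense genes were higher and 1 lower, and 2 of the sense genes were higher and 2 lower. FOXD2-AS1 rose there from 4.18 and 4.85 to 8.69 and 8.13 CPM (0.90).

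With blood cell sense genes, 2 of 8 antisense genes were higher (CEBPA-AS1 and CD27-AS1) and 0 lower, against 4 higher and 1 lower of 7 sense genes tested. CD27-AS1 went from 3.21 and 5.00 to 6.80 and 6.35 CPM (0.68, adjusted p = 0.0434, edgeR), and lost its call without vector library 1 (0.35, adjusted p = 0.0628) and without JMJD3 library 1 (0.63, adjusted p = 0.0637). SOCS2-AS1 (0.41, adjusted p = 0.121, edgeR) was not called. With mitochondrial and metabolic sense genes, 1 of 5 antisense genes was higher (COX10-AS1, 0.78) and 2 lower, SLC25A25-AS1 (-0.73) and NDUFB2-AS1 (-0.87), while 0 of the 5 sense genes were higher and 3 lower by edgeR. NDUFB2-AS1 has 42.7% of its exon bases on opposite-strand exons, and its call ended without vector library 1 (-0.78), without JMJD3 library 1 (-1.09) and without JMJD3 library 2 (-0.67).

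Genes that act on such RNAs were read as well. Of 20 tested genes of the nuclear RNA exosome and its adaptors, 3 were higher (ZFC3H1, RBM7 and ZCCHC7) and 9 lower (45.0%, against 19.1% of all genes tested and 29.0% of those in the highest class of count sums, as the median sum of the list was 6687). The remaining 8 were not called. ZFC3H1, part of the connection between polyadenylated nuclear RNA and the exosome, was at 31.1 and 20.6 CPM in the vector libraries and at 60.5 and 64.6 CPM in the JMJD3 libraries (log2 fold change 1.28, adjusted p = 0.00384, edgeR), but its FPKM went only from 10.7 and 8.55 to 11.7 and 12.9. EXOSC10, a nuclease of the nuclear exosome, was at 193, 186, 126 and 128 CPM (-0.58, adjusted p = 0.00272, edgeR). EXOSC6, a subunit of its core, was at 55.7, 54.3, 36.6 and 35.6 CPM (-0.61, adjusted p = 0.00424, edgeR), while the core subunit EXOSC3 (33.2, 34.0, 33.9 and 33.3 CPM) and the nuclease DIS3 (203, 162, 173 and 178 CPM) were not called. The cofactors MPHOSPH6 (-0.46) and C1D (-0.37) were lower too, and the adaptor ZCCHC8 was not called. Their part in the levels of the antisense genes was not tested. These genes were singled out of the list after their values were seen.

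Of 18 tested genes that sense, edit or cleave double-stranded RNA, 4 were higher (MAVS, ADARB1, DHX58 and OASL). MAVS, the adaptor behind the RNA helicase sensors, was at 120, 107, 160 and 177 CPM (0.57, adjusted p = 0.00595, edgeR). ADAR, the main editing enzyme, was at 240, 196, 202 and 219 CPM and was not called (-0.05, adjusted p = 0.724, edgeR). At 22.2% higher, these genes were near the share of all genes tested (21.6%).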

How the data were processed

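The labels give total RNA and an Illumina TruSeq RNA kit, and the paper adds selection of polyadenylated RNA with oligo(dT), so transcripts with no poly(A) tail may be missed. No strand-marking step is stated. For each gene the authors deposited estimated counts (expected counts) and FPKM values, 1 of each for every library. Most deposited counts are whole multiples of 1 step per library (1.14, 1.05, 0.993 and 0.829 in vector libraries 1 and 2 and JMJD3 libraries 1 and 2): within 0.02 of a whole number this held for 93.4%, 93.5%, 93.1% and 93.1% of nonzero values below 1000, so each library appears to have been scaled by a factor of its own. The upstream steps are stated in conflicting ways. The submitters' notes name CASAVA 1.8, TopHat2 2.0.4, RSEM, edgeR and GRCh38, the paper's methods Cutadapt, STAR to hg19, HTSeq-count and DESeq2, and the design text BWA with ANOVA and TopHat with Cufflinks. The authors' own fold change, p and FDR columns were not used.

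Deposited counts were rounded, filtered with filterByExpr (15246 of 60662 genes kept), scaled by TMM and tested with glmQLFit and glmQLFTest of edgeR 4.0.16 in R 4.3.3, with all 4 libraries in 1 fit, no covariate and Benjamini-Hochberg adjustment over all genes tested. With 2 libraries a group, an exact permutation test of a single value cannot go below 0.333, so none was run. Gene positions, types and shared exon bases are from GENCODE release 44 on GRCh37, matched by gene identifier, and promoters from RefSeq on GRCh38.p14, matched by symbol.

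Named antisense genes were the 12 largest rises and up to 12 largest falls at an adjusted p under 0.05 and 2-fold, the 10 with the highest mean FPKM, up to 3 with the smallest adjusted p for each of 6 functions of the sense gene, up to 5 pairs called in opposite directions with the largest difference, and the 3 on each side of the count minimum, with their sense genes. For the list of genes that sense, edit or cleave double-stranded RNA, the result for 1 gene is not reported. The antisense genes, lists and rules were chosen with earlier results of these data known. Alternatives were DESeq2 1.42.0 size factors and Wald test, no filter, at least 10 counts in every library, log2(FPKM + 1) and log2(FPKM + 0.1) fitted with limma 3.58.1, a replicate block, each library left out, count minimums of 50 and 200, genes with no shared exon base, and sense genes taken from the annotation. A crossed replicate block, counts divided by their step, and genes with under 30% shared exon bases were chosen after seeing the data.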

Additional observations from a re-analysis of the deposited data

How the results depend on the processing

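KDM6B stayed higher and past the threshold under all alternatives run, with a log2 fold change from 1.19 to 1.58 and an adjusted p of at most 0.0164. The median log2 fold change of the antisense genes was 0.40, and 0.24 with limma on log2(FPKM + 1), and stayed above that of all genes in each fit. Of 60 named genes that were called, 0 reversed under any setting and 32 stayed past the threshold under every setting with a value. Over 90 named genes and all settings, 1012 values kept direction and side of the threshold, 98 fell short of it, 40 newly passed it and 19 reversed.

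With the DESeq2 Wald test 60 antisense genes were higher and 10 lower, and 18 pairs moved in the same direction. With no filter on low counts 9 antisense genes were lower, 31 sense genes were higher and 31 lower, and 16 pairs moved in the same and 7 in opposite directions. More genes were tested there. With limma on log2(FPKM + 1) 31 sense genes were higher, 10 antisense genes were at least 2-fold higher and 0 at least 2-fold lower, 1 sense gene was at least 2-fold lower and 16 pairs moved in the same direction, and the larger pseudocount draws low values together. With limma on log2(FPKM + 0.1) 60 antisense and 31 sense genes were higher, 16 sense genes were at least 2-fold higher, and 14 pairs moved in the same and 11 in opposite directions. With a count minimum of 50, 8 of 300 antisense genes were at least 2-fold lower (2.67%, against 2.82% of all genes tested). Among the 48 genes with no shared exon base 22 were higher and 1 lower, and 11 were at least 2-fold higher and 0 lower. Under 30% of shared bases, an alternative chosen after seeing the data, 6 were lower and 0 at least 2-fold lower. With sense genes taken from the annotation, which were those of the name for 187 of 242, 11 pairs moved in opposite directions. Where no reason is given, the cause was not tested.

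The replicate block, with replicate number as a term, gave 37 sense genes lower. The deviations of replicate 1 from its group had a correlation of -0.146 over 15246 genes, so like numbers did not go together. With the crossed replicate block, chosen after seeing the data, 45 pairs moved in the same direction. Counts divided by the step of their library gave 94 antisense genes higher and 16 lower.

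Leaving out 1 library at a time gave 54 to 90 antisense genes higher and 7 to 19 lower, 35 to 41 at least 2-fold higher and 4 to 5 at least 2-fold lower. It gave 31 to 74 sense genes higher and 17 to 72 lower, 9 to 15 at least 2-fold higher, 9 to 44 pairs in the same direction and 3 to 25 in opposite ones. Fewer libraries were fitted in each.

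The 19 reversed values were of 10 genes not called in the main comparison. With limma on log2(FPKM + 1) and log2(FPKM + 0.1), NUTM2A-AS1 was at -0.33 and -0.34, MAPKAPK5-AS1 at -0.087 and -0.089, SOCS2-AS1 at -0.053 and -0.073, EDRF1-AS1 at -0.0059 and -0.011, LPP at 0.15 and 0.25 and EDRF1 at -0.11 in both. Without vector library 1, MAPKAPK5-AS1 was at -0.082, SRRM2-AS1 and ZEB2-AS1 at -0.026, EDRF1-AS1 at -0.028 and ZNF213 at -0.010. ZEB2 was at -0.16 without vector library 2 and EDRF1-AS1 at -0.099 without JMJD3 library 2. Ranges over the libraries left out ran, for genes with a reversal there, from -0.082 to 0.12 in MAPKAPK5-AS1, -0.026 to 0.53 in SRRM2-AS1, -0.026 to 0.38 in ZEB2-AS1, -0.099 to 0.30 in EDRF1-AS1, -0.010 to 0.27 in ZNF213 and -0.16 to 0.34 in ZEB2. The cause was not tested.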
